A study of Mus musculus with 6 samples.

Results

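The genes of ISG15 conjugation and of the PARP9/DTX3L system were measured in mouse cells early in beige adipocyte differentiation that overexpressed 1 of 2 mutants of PPARγ2, the adipocyte form of the nuclear receptor PPARγ. The 10 genes were taken by name from the 56884 gene IDs of each library. *Isg15*, *Uba7*, *Ube2l6*, *Herc6* and *Usp18* form the ISG15 group, and *Parp9*, *Dtx3l*, *Parp14*, *Parp10* and *Parp12* form the PARP9/DTX3L group. Each name matched 1 gene ID, and all 10 reached the minimum for the test, 0.5 TPM or more in 3 or more libraries. TPM is a share of the transcripts of a library corrected for transcript length.

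ISG15 is a small ubiquitin-like protein that interferon (IFN) induces strongly. It is joined to other proteins by a chain of enzymes in which UBA7 activates it, UBE2L6 carries it and a ligase, in the mouse mainly HERC6, hands it to the target, and USP18 takes it off again. USP18 also binds the type I IFN receptor and damps its signal. PARP9 and DTX3L form a complex of an ADP-ribosyltransferase family member and a ubiquitin ligase, while PARP10, PARP12 and PARP14 attach single ADP-ribose units to proteins. All 10 genes are known as IFN-stimulated genes.

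Both groups of cells came from an immortalised line of the stromal vascular fraction (SVF), the precursor-containing fraction of mouse subcutaneous white adipose tissue (scWAT). Retroviral vectors introduced HA-tagged mouse PPARγ2 K382Q, whose glutamine resembles acetylated lysine, or PPARγ2 K382R, whose arginine resembles deacetylated lysine, and puromycin selected the stable lines. The cells keep their own *Pparg*, and libraries of cells with wild-type PPARγ2 or an empty vector were not analysed here. All cells had been in beige adipocyte differentiation for 2 days, with isobutylmethylxanthine, indomethacin, dexamethasone, insulin, T3 and rosiglitazone in the medium. There were 3 biological replicates of each mutant, called K382Q and K382R cells below. The labels do not say whether these were separate transductions or separate cultures, so the p-values measure the spread between these libraries only.

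The aligned length per library, read from the tables, was 5.95 to 7.50 Gb in K382Q cells and 6.53 to 8.15 Gb in K382R cells. Across the 15426 genes tested with limma on log2(TPM + 0.5), the median log2 fold change, K382Q minus K382R, was -0.14. At an adjusted p-value under 0.05, 36.9% of all genes tested were lower and 11.1% were higher in K382Q cells. After median-ratio scaling the median gene lay at 0.0032 and 3153 genes were lower and 3057 higher, in place of 5698 lower and 1717 higher. Relative to the median gene, a log2 fold change on the TPM scale is thus 0.14 higher than printed, and differences near -0.14 lie close to that gene.

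The stretch of DNA before the *Isg15* start site is shown because it alone, of the 6 promoters searched, held the core of the main IFN-responsive motif. The core of the IFN-stimulated response element (ISRE) was searched as GAAA, 2 free bases and GAAA on both strands of the RefSeq promoters, which run from 250 bases before to 50 after a start site in GRCm38.p6. The line gives bases 150 to 31 before the start on the minus strand, chr4:156200849-156200968, 5′ to 3′, with the matched bases in capitals.
Isg15: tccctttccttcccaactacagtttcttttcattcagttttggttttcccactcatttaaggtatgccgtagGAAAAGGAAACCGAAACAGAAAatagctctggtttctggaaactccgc
The run in capitals is made of 3 overlapping matches that begin 78, 72 and 66 bases before the start.
match 1: GAAAAGGAAA
match 2: GAAACCGAAA
match 3: GAAACAGAAA
Promoters were listed for 6 of the 10 genes, *Isg15*, *Uba7*, *Ube2l6*, *Herc6*, *Dtx3l* and *Parp12*. *Isg15* was the 1 gene of these 6 with the ISRE core in this window, and 3.44% of the 32851 promoters of the table held it. The core of the gamma-activated site, TTCNNNGAA, which reads the same on both strands, was found in 0 of the 6 promoters and in 8.3% of all promoters. Promoters of *Usp18*, *Parp9*, *Parp14* and *Parp10* were not analysed here.

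All 10 genes were lower in K382Q cells than in K382R cells (limma, Benjamini-Hochberg adjusted p-values under 0.05), against the 36.9% of all genes given above. In all 10, the 3 K382Q libraries lay below the 3 K382R libraries, which held for 42.8% of all genes tested. The log2 fold changes ran from -1.56 for *Usp18* to -0.36 for *Ube2l6*, with a median of -0.78 beside -0.14 for all genes. *Usp18*, *Isg15* and *Parp14* were called DEGs, which needs a fold change over 2 as well, and 2.61% of all genes were DEGs lower in K382Q cells. In RNA from whole cultures, fewer cells that express a gene and less RNA per cell cannot be told apart.

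**Figure D1:**
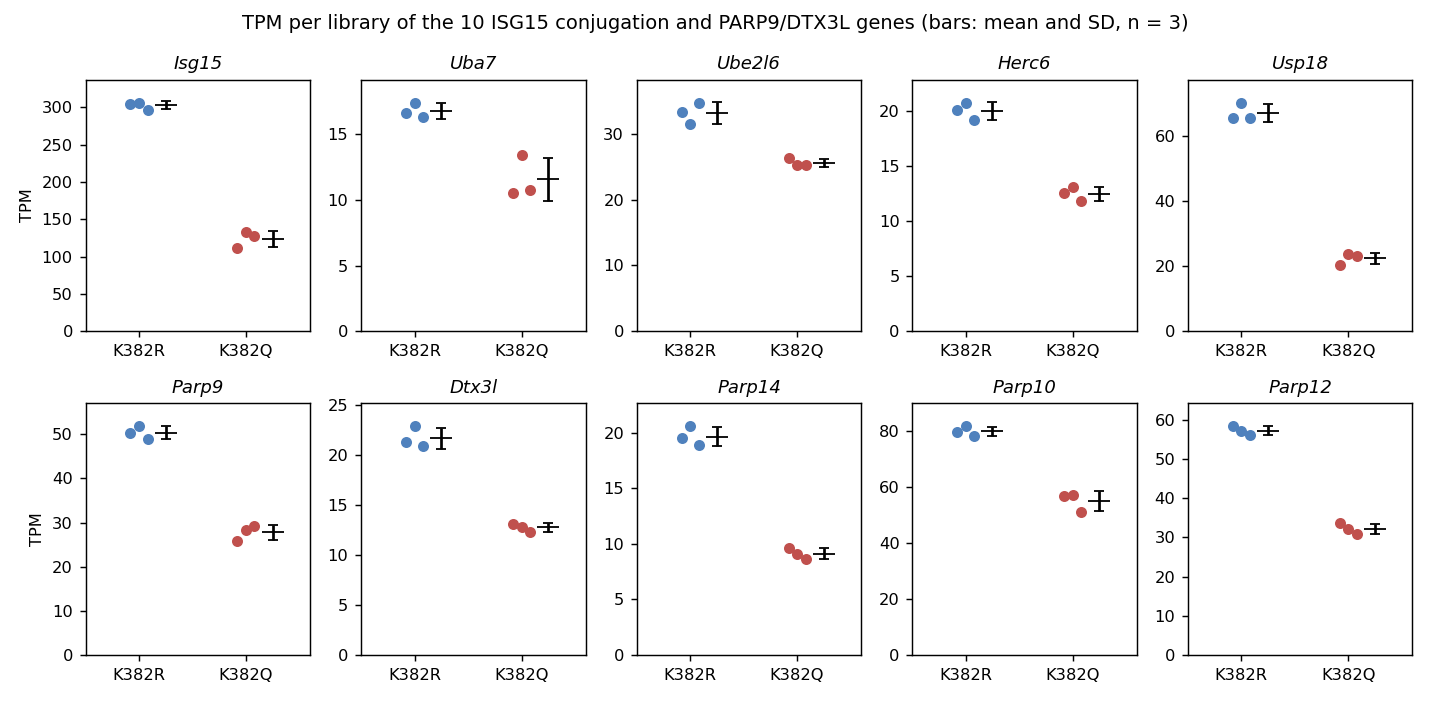
TPM of each of the 10 genes in each library (points, 3 per mutant), with the mean and SD at the right of the points and every axis starting at 0. The K382Q points lie below the K382R points in every panel, with the widest gap on the TPM scale in *Isg15* and the closest pair of groups in *Uba7*, at 13.4 and 16.3 TPM.

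*Isg15* itself (ENSMUSG00000035692.8, chromosome 4, 156283912 to 156285253, minus strand, GRCm39) was the most abundant of the 10 transcripts in both mutants. Its TPM was 112, 133 and 127 in K382Q cells and 305, 306 and 297 in K382R cells. The K382R libraries were within a few percent of each other, and the lowest of them was 164 TPM above the highest K382Q library. The means were 124 ± 10.99 (SD, n = 3) and 303 ± 5.33 TPM, a 2.44-fold difference. The log2 fold change was -1.29 (SE 0.06, adjusted p-value 3.7e-06 with limma), which ranked 194 of 15426 genes from the lowest. Mean read depth over the gene was 274 to 977 reads per base.

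The genes of the enzymes that attach ISG15 were lower as well, with smaller log2 fold changes. *Uba7* (ENSMUSG00000032596.15, chromosome 9, 107852704 to 107861259, plus strand), which encodes the activating enzyme, had 10.5, 13.4 and 10.8 TPM in K382Q cells and 16.6, 17.4 and 16.3 TPM in K382R cells. It was the least abundant of the 10 genes in K382R cells, and K382Q replicate 2 stood above the other 2 K382Q libraries. Its means were 11.6 ± 1.62 and 16.8 ± 0.575 TPM (SD, n = 3), and its log2 fold change was -0.53 (SE 0.10, adjusted p-value 0.0026 with limma). Relative to the median gene, the log2 difference of *Uba7* was -0.39.

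*Ube2l6* (ENSMUSG00000027078.15, chromosome 2, 84629172 to 84640679, plus strand), which encodes the conjugating enzyme, had 26.3, 25.4 and 25.2 TPM in K382Q cells and 33.3, 31.5 and 34.8 TPM in K382R cells. This was the smallest difference among the 10 genes on the log2 scale, with tight K382Q libraries. The means were 25.6 ± 0.585 and 33.2 ± 1.65 TPM (SD, n = 3), and the log2 fold change was -0.36 (SE 0.05, adjusted p-value 0.00062 with limma), or -0.23 relative to the median gene. Quantile normalization brought it to -0.20, the value nearest to 0 of any of the alternatives.

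*Herc6* (ENSMUSG00000029798.12, chromosome 6, 57557985 to 57641617, plus strand), the ligase gene, had 12.6, 13.1 and 11.9 TPM in K382Q cells and 20.1, 20.8 and 19.2 TPM in K382R cells. Each group spread over less than 2 TPM, and the gap between them was 6.10 TPM. The means were 12.5 ± 0.624 and 20.04 ± 0.800 TPM (SD, n = 3). Its log2 fold change was -0.66 (SE 0.06, adjusted p-value 8.4e-05 with limma).

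*Usp18* (ENSMUSG00000030107.11, chromosome 6, 121222865 to 121247876, plus strand), which encodes the enzyme that removes ISG15, showed the largest relative difference of the 10 genes. Its TPM was 20.5, 23.7 and 23.1 in K382Q cells and 65.5, 70.4 and 65.7 in K382R cells. The groups were separated by 41.8 TPM, more than the level of any K382Q library. The means of 22.4 ± 1.72 and 67.2 ± 2.76 TPM (SD, n = 3) differed 2.997-fold, and the log2 fold change was -1.56 (SE 0.06, adjusted p-value 1.9e-06 with limma). It ranked 101 of 15426 genes from the lowest.

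In the PARP9/DTX3L group, the 2 partners of the complex were both lower. *Parp9* (ENSMUSG00000022906.16, chromosome 16, 35758840 to 35792975, plus strand) had 25.9, 28.4 and 29.2 TPM in K382Q cells and 50.3, 51.8 and 48.8 TPM in K382R cells. *Dtx3l* (ENSMUSG00000049502.18, chromosome 16, 35746881 to 35759521, minus strand) had 13.1, 12.8 and 12.3 TPM in K382Q cells and 21.3, 22.9 and 20.8 TPM in K382R cells. No K382Q library reached the lowest K382R library in either gene. The log2 fold change was -0.85 for *Parp9* (SE 0.05, adjusted p-value 1.4e-05 with limma), from means of 27.8 ± 1.73 and 50.3 ± 1.49 TPM (SD, n = 3). For *Dtx3l* it was -0.74 (SE 0.06, adjusted p-value 3.9e-05 with limma), from means of 12.8 ± 0.437 and 21.7 ± 1.06 TPM (SD, n = 3).

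The neighbourhood of this pair bears on how its reads can be assigned. *Parp9* and *Dtx3l* lie on opposite strands and share 682 bases at their 5′ ends, of which 367 are exonic in both canonical transcripts of GENCODE release M39. Whether the strand of the reads was used in counting was not stated in the sources used here, so reads of the shared bases cannot be assigned to 1 of the genes with certainty. The antisense gene *Gm15564* also overlaps *Parp9* by 5855 bases, with a mean of 0.0050 TPM in K382Q and 2.58 TPM in K382R cells and at most 7.65 TPM in a library. Its part in the *Parp9* difference was not tested.

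*Parp14* (ENSMUSG00000034422.15, chromosome 16, 35653244 to 35691914, minus strand) was the DEG of the PARP9/DTX3L group and lies on the same chromosome as *Parp9* and *Dtx3l*. It encodes a macrodomain-bearing ADP-ribosyltransferase. Its TPM was 9.60, 9.12 and 8.64 in K382Q cells and 19.5, 20.6 and 18.9 in K382R cells. The gap between the groups, 9.25 TPM, was about as large as the K382Q level itself. The means were 9.12 ± 0.483 and 19.6 ± 0.869 TPM (SD, n = 3), a 2.15-fold difference, and the log2 fold change was -1.07 (SE 0.06, adjusted p-value 1.1e-05 with limma). The call as a DEG was lost with FPKM in place of TPM (-0.93), with median-ratio scaling (-0.92) and with quantile normalization (-0.91), each of which left the adjusted p-value under 0.05.

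*Parp12* (ENSMUSG00000038507.7, chromosome 6, 39063344 to 39095283, minus strand), which encodes a zinc finger member of the family, had 33.6, 32.1 and 30.9 TPM in K382Q cells and 58.4, 57.2 and 56.2 TPM in K382R cells. Both groups were tight, and the gap between them was 22.6 TPM. The means were 32.2 ± 1.37 and 57.2 ± 1.097 TPM (SD, n = 3), and the log2 fold change was -0.82 (SE 0.04, adjusted p-value 5.6e-06 with limma).

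*Parp10* (ENSMUSG00000063268.13, chromosome 15, 76115374 to 76127641, minus strand), a mono-ADP-ribosyltransferase gene, was the most abundant of the PARP9/DTX3L group. It had 56.8, 57.3 and 51.0 TPM in K382Q cells and 79.7, 81.7 and 78.2 TPM in K382R cells. K382Q replicate 3 lay below the other 2 K382Q libraries, and all 3 lay below every K382R library. The means were 55.0 ± 3.51 and 79.9 ± 1.77 TPM (SD, n = 3), and the log2 fold change was -0.54 (SE 0.05, adjusted p-value 9.8e-05 with limma). The span of *Parp10* overlaps that of *Plec*, a cytoskeletal linker gene on the same strand, by 1401 bases, and *Plec* had 46.9 TPM in K382Q and 79.9 TPM in K382R cells. The part of *Plec* in the *Parp10* difference was not tested. Apart from *Plec*, *Gm15564* and the *Parp9* and *Dtx3l* pair, the highest gene that overlaps one of the 10 was *Gm44148*, opposite *Usp18*, with at most 0.631 TPM in a library.

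**Figure D2:**
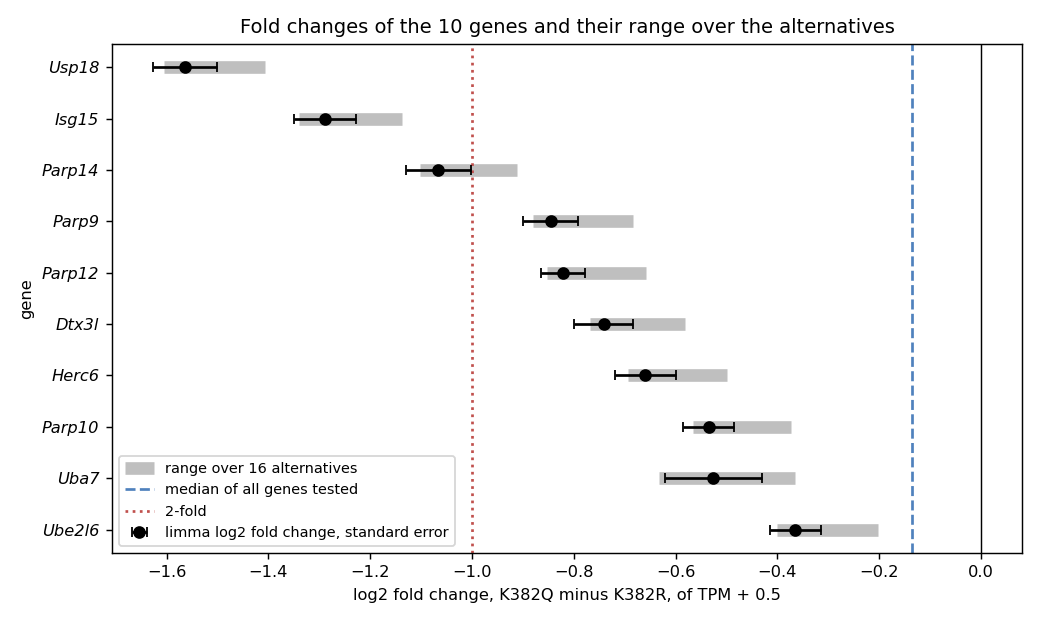
log2 fold change of each of the 10 genes, K382Q minus K382R, with its SE from limma (points and bars) and its range over 16 alternative settings (grey bands). Every band lies left of the dashed line at the median of all genes, -0.14, and *Parp14* is the 1 gene whose band crosses the dotted 2-fold line.

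The order of the levels changed between the mutants. In K382R cells it ran from *Isg15* through *Parp10*, *Usp18*, *Parp12*, *Parp9*, *Ube2l6*, *Dtx3l*, *Herc6* and *Parp14* to *Uba7*. The ranges of *Herc6* and *Parp14* overlapped, and those of the other neighbours did not. In K382Q cells the order was *Isg15*, *Parp10*, *Parp12*, *Parp9*, *Ube2l6*, *Usp18*, *Dtx3l*, *Herc6*, *Uba7* and *Parp14*. There, *Parp9* overlapped with *Ube2l6*, *Dtx3l* with *Herc6*, and *Herc6* with *Uba7*. *Usp18* was thus 3rd of 10 in K382R cells and 6th in K382Q cells.

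Summed over the 10 genes, the level was 320 to 348 TPM in K382Q cells and 656 to 681 TPM in K382R cells. *Isg15* made up a large part of this sum. Without it, the other 9 genes summed to 203 to 215 TPM in K382Q cells and 359 to 374 TPM in K382R cells. The ISG15 group summed to 181 to 208 against 433 to 447 TPM, and the PARP9/DTX3L group to 132 to 140 against 223 to 234 TPM.

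Ratios of 2 genes within a library cancel the scaling of that library, apart from the effect of the pseudocount. They were taken on the log2(TPM + 0.5) scale for 7 pairs, with a two-sided exact permutation test over the 6 libraries, which cannot give a p-value below 0.1 with 3 against 3. The ratios of the enzymes to *Isg15* did not overlap between the mutants. The log2 ratio to *Isg15* was higher in K382Q cells by 0.76 for *Uba7*, by 0.92 for *Ube2l6* and by 0.63 for *Herc6*. The ratio of *Usp18* to *Isg15* went the other way, from -2.17 ± 0.05 in K382R cells to -2.44 ± 0.02 in K382Q cells (SD, n = 3), a difference of -0.27. In each of these 4 pairs, which all share *Isg15*, the groups did not overlap and the exact permutation p-value was 0.1, the smallest possible (0.12 after adjustment over the 7 ratios). How often other pairs of genes are without overlap was not tested.

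*Ube2l6* was also set against *Ube2l3*, its close relative, which mainly carries ubiquitin. Their log2 ratio differed by -0.12 between K382Q and K382R cells, without overlap, although K382Q replicate 3 (-2.633) nearly met K382R replicate 2 (-2.632). The log2 ratio of *Parp14* to *Parp9* was -1.38, -1.59 and -1.70 in K382Q cells and -1.35, -1.31 and -1.35 in K382R cells, a difference of -0.22 without overlap, although K382Q replicate 1 lay close to the K382R libraries. Both had the smallest possible exact permutation p-value of 0.1 (adjusted 0.12).

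The ratio of *Parp9* to *Dtx3l* overlapped between the mutants. On the linear scale it was 1.97, 2.22 and 2.38 in K382Q cells and 2.37, 2.27 and 2.34 in K382R cells. The log2 difference was -0.10 (exact permutation p-value 0.3, adjusted 0.3), and it ranged from -0.03 without K382Q replicate 1 to -0.16 without K382Q replicate 3. The overlap came from K382Q replicate 3, while the other 2 K382Q libraries lay below all K382R libraries.

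**Figure D3:**
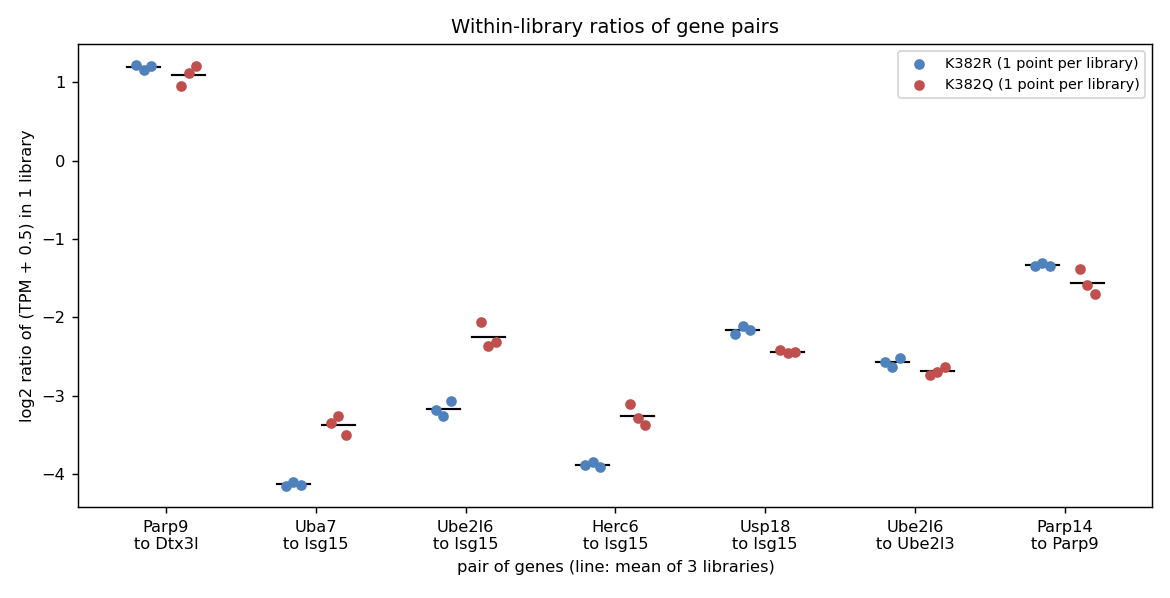
log2 ratio of (TPM + 0.5) of 2 genes in each library for the 7 pairs, 1 point per library, with a line at the mean of the 3 libraries of a mutant. The K382Q points of *Uba7*, *Ube2l6* and *Herc6* to *Isg15* lie above those of K382R, the points of *Usp18* to *Isg15* lie below, and those of *Parp9* to *Dtx3l* overlap.

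Other genes of these pathways moved in both directions, and none passed 2-fold. Of 16 cofactors of ISG15 conjugation and close relatives of its enzymes, 10 were lower and 1 was higher in K382Q cells, and 5 did not pass, with a median log2 fold change of -0.26 and no DEG, beside the same 36.9% lower and 11.1% higher among all genes. *Trim25*, a ligase gene also linked to ISG15, was the lowest at -0.59, with 89.3 ± 2.14 TPM in K382Q and 135 ± 1.55 TPM in K382R cells (SD, n = 3; adjusted p-value 5.6e-06 with limma). The ubiquitin and SUMO enzymes *Uba1* (-0.38), *Uba2* (-0.32), *Uba6* (-0.31) and *Ube2l3* (-0.24), the deubiquitinases *Usp14* (-0.47), *Usp5* (-0.41) and *Usp16* (-0.28), and *Herc2* (-0.29) and *Herc4* (-0.17) were lower too. *Herc3* was higher at 0.23. The values of *Herc1*, *Arih1*, *Uba3*, *Usp13* and *Usp21* lay between -0.17 and 0.14 and did not pass. *Arih1* and *Uba3* were called lower without K382Q replicate 1, and *Usp21* was called higher with quantile normalization. With median-ratio scaling, 5 of the 16 were lower and 1 was higher, and with quantile normalization 6 were lower and 2 higher. Among all genes, 20.4% were lower and 19.8% higher with the first scaling and 21% and 19.1% with the second. *Herc4* passed in 8 of the 16 alternatives and lost its call without K382Q replicate 2 or 3 or K382R replicate 1 or 3.

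Among 12 other genes of the PARP family, 7 were lower and 2 were higher, with a median of -0.26 and no DEG, beside 36.9% lower and 11.1% higher among all genes. *Parp11*, a mono-ADP-ribosyltransferase gene, fell most, from 19.4 TPM in K382R to 10.4 TPM in K382Q cells (log2 fold change -0.86, SE 0.06, adjusted p-value 2.7e-05 with limma). *Parp8* (-0.71), *Parp3* (-0.67), *Parp1* (-0.41), the DNA damage sensor, *Zc3hav1* (-0.34), which encodes the antiviral zinc finger protein ZAP, and the tankyrase genes *Tnks2* (-0.33) and *Tnks* (-0.19) were also lower. *Tiparp*, a target of the aryl hydrocarbon receptor, rose from 43.6 to 71.2 TPM (log2 fold change 0.70, SE 0.05, adjusted p-value 2.1e-05 with limma), and *Parp6* rose by 0.23. *Parp6* lost its call without K382Q replicate 2, K382R replicate 1 or K382R replicate 3. *Parp16* (0.19), *Parp4* (0.07) and *Parp2* (0.03) did not pass. *Parp16* was called higher in 5 of the 16 alternatives, among them that without K382Q replicate 1. *Parp4* and *Parp2* were called higher with median-ratio scaling and with quantile normalization. With median-ratio scaling or quantile normalization, 6 of the 12 were lower and 5 higher, beside 20.4% or 21% lower and 19.8% or 19.1% higher among all genes.

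Of the relatives of *Dtx3l*, *Dtx3* (-0.41) and *Dtx2* (-0.13) were lower, *Dtx4* (0.08) did not pass and *Dtx1* was too low to be tested. *Dtx2* lay at the median gene, and its call was lost in 7 of the 16 alternatives, among them those without K382Q replicate 1 or 3 and K382R replicate 2 or 3. Of the enzymes that remove ADP-ribose, *Parg* (-0.25), *Adprs* (-0.24) and *Adprh* (-0.21) were lower, *Macrod1* (0.57) and *Macrod2* (0.45) were higher and *Oard1* (0.06) did not pass. With median-ratio scaling or quantile normalization, *Oard1* was called higher, and 0 of these genes were lower and 3 higher. Among all genes, 20.4% or 21% were lower and 19.8% or 19.1% higher in these settings. The calls of *Parg*, *Adprs* and *Adprh* were lost with median-ratio scaling and with quantile normalization, and those of *Adprs* and *Adprh* with FPKM too. That of *Macrod1* stayed in all 16 alternatives, and that of *Macrod2*, at 1.87 to 2.73 mean TPM, was lost in 7 of them, including those without any 1 of the K382Q libraries or without K382R replicate 1 or 2. Mean read depth was 0.05 to 0.10 reads per base over *Macrod2*, beside 49.59 to 97.35 over *Macrod1*.

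Of the 10 genes of type I and type II IFN receptor signalling, which bring the IFN signal to the nucleus, 9 were lower and *Tyk2* (-0.11, adjusted p-value 0.23 with limma) did not pass, with a median of -0.33, beside 36.9% lower and a median of -0.14 among all genes. With FPKM, with median-ratio scaling, with quantile normalization and without K382Q replicate 3, 7 of the 10 were lower, beside 30.2%, 20.4%, 21% and 32.6% of all genes in those settings. Of those named here, the transcription factor genes were the lowest, with *Stat2* at -0.87 (SE 0.04, adjusted p-value 4.6e-06) and *Irf9* at -0.56 (SE 0.05, adjusted p-value 5.9e-05). *Stat2* went from 49.8 TPM in K382R to 26.9 TPM in K382Q cells and *Irf9* from 52.0 to 35.1 TPM. The receptor genes *Ifnar1* (-0.40), *Ifngr1* (-0.33), *Ifngr2* (-0.32) and *Ifnar2* (-0.19) and the kinase genes *Jak2* (-0.25) and *Jak1* (-0.24) were nearer to the median gene. *Ifnar2* passed in 5 of the 16 alternatives and *Jak2* in 10, and both lost their calls without certain single libraries (K382Q replicate 1 or 3 or K382R replicate 1 or 3 for *Ifnar2*, and K382Q replicate 2 or 3 or K382R replicate 2 for *Jak2*).

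**Figure D4:**
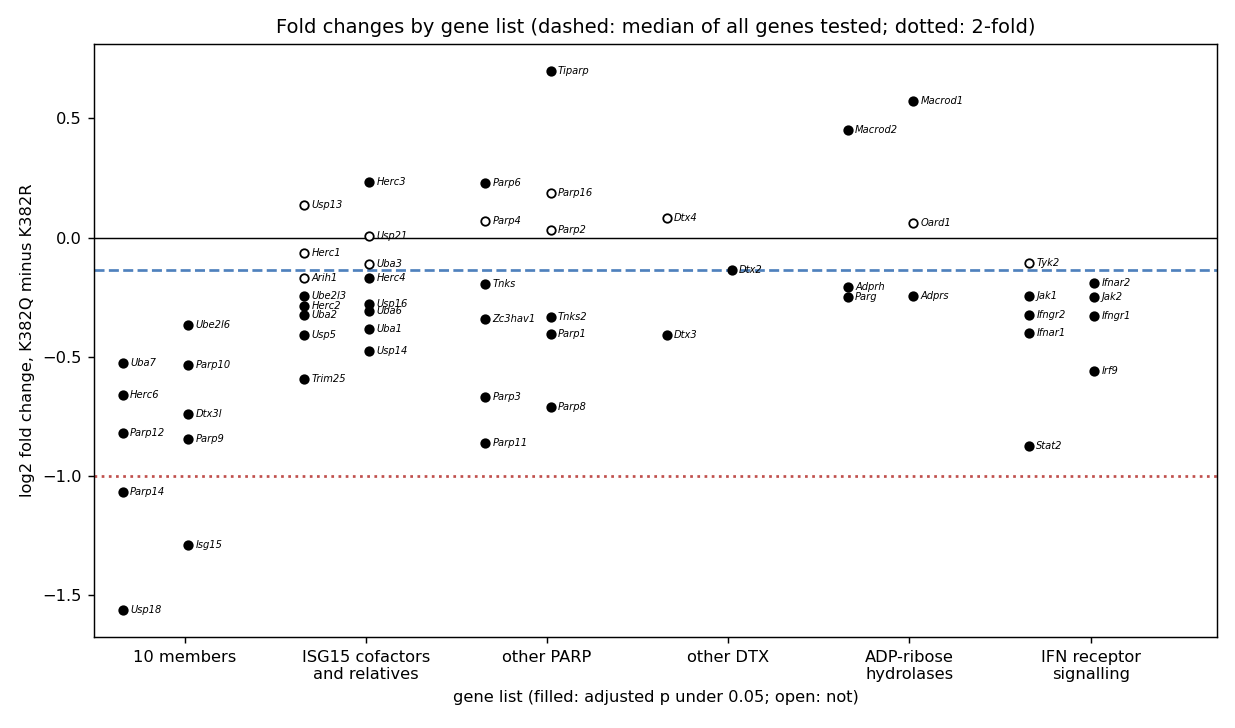
log2 fold change, K382Q minus K382R, of the 10 genes and of genes of the 5 other lists, filled where the adjusted p-value from limma was under 0.05. The dashed line is the median of all genes, -0.14, and the dotted line is the 2-fold threshold, which only *Usp18*, *Isg15* and *Parp14* pass.

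*Pparg*, the gene that was introduced, had 1200 ± 119 TPM in K382Q cells and 1611 ± 21.1 TPM in K382R cells (SD, n = 3), a log2 fold change of -0.43 (SE 0.06, adjusted p-value 0.00098 with limma). The tables do not separate the introduced sequence from the cells' own, and the part of this difference in the results above was not tested. The 7 adipocyte markers were all detected and summed to 52270 to 55970 TPM in K382Q and 43840 to 45040 TPM in K382R cells, mostly from *Fabp4*. *Fabp4* and *Cidec* (2146 and 1774 TPM) were higher in K382Q cells, *Adipoq* (148 and 360 TPM), *Cebpa* (179 and 315 TPM), *Lpl* (1691 and 1923 TPM) and *Pparg* were lower, each without overlap, and *Plin1* (447 and 462 TPM) overlapped. The 7 preadipocyte and fibroblast markers, of which *Dpp4* was listed at 0 and *Cd34* stayed under 1 TPM, summed to 508 to 552 TPM in K382Q and 866 to 903 TPM in K382R cells. Most of this sum came from *Ly6a* (467 and 767 TPM). *Ly6a*, *Pdgfra*, *Pdgfrb*, *Col1a1*, *Thy1* and *Cd34* were each lower in K382Q cells without overlap, although *Cd34*, at 0.17 and 0.44 TPM, was too low to be tested. Of the 15426 genes tested, 6608 (42.8%) were lower and 2179 were higher without overlap. The preadipocyte sum and these 4 adipocyte markers were lower in K382Q cells, as the 10 genes were, the adipocyte sum was higher, and their part in the result was not tested. Of 10 leukocyte markers, *Adgre1*, *Cd3e* and *Tyrobp* were listed at 0 in every library and only *Cd68* exceeded 1 TPM, and their sum was 3.58 to 4.69 TPM in K382Q and 3.87 to 5.18 TPM in K382R cells. The 5 endothelial markers summed to 1.596 to 2.25 and 1.71 to 1.94 TPM, none of them at 0 in every library. Most of this sum came from *Pecam1* (1.75 and 1.53 TPM), and *Cdh5*, *Kdr*, *Tek* and *Vwf* stayed under 1 TPM in every library. Of the 3 plasmacytoid dendritic cell markers, *Siglech* was listed at 0, *Tcf4* was at 16.3 and 15.5 TPM, and *Bst2*, which IFN also induces in other cells, was at 226 TPM in K382Q and 462 TPM in K382R cells, so that the list summed to 224.6 to 261 and 462.5 to 499.6 TPM.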

How the data were processed

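Both mutants had 3 RNA-seq libraries (NEBNext Ultra, 150-bp read pairs). The authors used HISAT2 on GRCm39 and StringTie, and deposited per library the coverage (reads per base, not normalized), the FPKM and the TPM (scaled to 1000000, a share and not an amount). The annotation release and the use of strand were not given in the sources used here. Counts were not analysed here. Repeated gene IDs were summed (3 to 5 per library). Aligned length was taken as the commonest value of coverage divided by FPKM among genes above 1 FPKM, which 16.3 to 16.7% of them held. The ratio was lower in most others and above it by more than 1% in 0 genes. No 2 libraries shared over 0.0117% of values.

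The mutants were compared with limma 3.58.1 (R 4.3.3, intensity trend, tested on simulated data) on log2(TPM + 0.5), which understates changes of low genes. Genes needed 0.5 TPM or more in 3 or more libraries, and p-values were adjusted after Benjamini and Hochberg. DEGs needed an adjusted p-value below 0.05 and a fold change above 2. Alternatives were other pseudocounts (1 and 0.1), other filters (none and 1 TPM), FPKM, median-ratio scaling, quantile normalization, no trend, array weights, a replicate block, single libraries left out and a fold change of 1.5.

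Named are the 10 genes, *Pparg*, genes overlapping the 10, and from each pathway list the genes that passed and up to 3 abundant others, extended to all others after their values were seen. A few single genes are left out of the text and plots. Members and lists were chosen with earlier results of these data known. GENCODE M39 gave exons, and RefSeq promoters (GRCm38.p6) were matched by symbol. Python 3.11.15, pandas 2.3.3, numpy 2.4.6 and matplotlib 3.10.9 were used.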

Additional observations from a re-analysis of the deposited data

How the results depend on the processing

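All 10 genes stayed lower in K382Q cells at an adjusted p-value under 0.05 (limma) in the 16 alternatives, with the adjusted p-value nearest to the threshold, 0.024, for *Uba7* after quantile normalization. Under the alternatives the number of DEGs among the 10 was 3 in 13 settings and 2 with quantile normalization, FPKM or median-ratio scaling, where *Parp14* fell short of 2-fold. A fold change over 1.5 gave 7 of the 10 genes as DEGs, beside 1287 lower DEGs among the 15426 genes tested. Among all genes, the lower DEGs went from 403 to 226 with FPKM, 298 with a pseudocount of 1 and 603 with a pseudocount of 0.1, and the genes lower at an adjusted p-value under 0.05 went from 5698 to 3153 with median-ratio scaling and 3241 with quantile normalization, which both bring the median gene close to 0. Leaving out single libraries left 4893 to 5521 lower genes, 355 to 429 lower DEGs and 3 DEGs among the 10. With the replicate block, all 10 genes stayed lower with 3 DEGs, and 5387 genes were lower and 407 of them DEGs. Deviations from the mean of each mutant correlated at -0.02, 0.05 and 0.02 between libraries of the same number. Libraries of different numbers gave -0.06 to 0.04. Not every library correlated best with its own number, so the numbers were not taken to pair the samples. FPKM or no pseudocount changed no direction of the 7 ratios. The TPM tables hold no counts, so the counting error of single genes could not be given.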
